A study of Mus musculus with 12 samples.

Results

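The small leucine-rich proteoglycans are secreted proteins of connective tissue. A core of leucine-rich repeats binds collagen fibrils and growth factors, and most members carry chondroitin, dermatan or keratan sulphate chains. Fibroblasts are a main source of decorin, biglycan and lumican, and the family is known for setting the width and spacing of collagen fibrils and for holding TGF-beta family ligands in the matrix. The 10 genes described here, of 23077 in the deposited table, were chosen by gene symbol: Dcn, Lum, Bgn, Fmod, Ogn, Kera, Aspn, Omd, Prelp and Podn. The family itself was selected on differences of its genes between these same groups, which were already known, so the values of the 10 genes are given as a description, with standard errors and no p-values.

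The libraries came from primary mouse embryonic fibroblasts carrying the Hb9::GFP reporter, on their way to becoming induced motor neurons. The conversion factors Ngn2, Isl1 and Lhx3, together called NIL, were delivered by retrovirus in all 4 groups. RISDD cells (3 libraries) also received HRAS(G12V), a constitutively active HRAS, placed before an internal ribosome entry site (IRES) that was followed by SDD, the dominant-negative p53 fragment p53DD fused to a SNAP tag. SDDIR cells (2 libraries) received the same pair of proteins in the reverse order, with SDD before the IRES and HRAS(G12V) after it. SDD cells (3 libraries) received SNAP-p53DD without HRAS(G12V), and NIL cells (3 libraries) received only the conversion factors. All cells were moved to N3 medium 3 days after infection and collected on day 4. RepSox, which blocks the TGF-beta receptor, was in the medium of RISDD, SDDIR and SDD from day 3 but not of NIL. Before RNA extraction RISDD, SDDIR and SDD cells were sorted for the SNAP tag, and NIL cells for being alive and single. In SDD against NIL, the p53 fragment with its virus, RepSox and the sort therefore cannot be told apart. The samples are labelled as biological replicates with nothing further on separate cultures, so p-values may measure only technical spread.

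Values are the authors' normalized counts, called signal here. Libraries held 14872639 to 29815073 reads. NIL C stood apart, with 0.537% of its signal in mitochondrially encoded genes, against 2.60% to 4.04% in the other 10 libraries, and values without it are given where it matters. Fibroblast markers were present in every group. The summed signal of 8 of them was 152146 to 158599 in RISDD, 166607 to 183682 in SDDIR, 402061 to 487510 in SDD and 499119 to 895695 in NIL, and none of the 8 was at 0 in any group. Col1a1, Col1a2 and Vim made up most of this sum, averaging 5821, 55981 and 88442 in RISDD and 139540, 244598 and 40593 in SDD. Col1a1 and Col1a2 are also among the collagens below. Against SDD, 7 of these 8 fell and 1, Vim, rose in RISDD. In SDDIR 6 fell, or 4 without SDDIR A, and 1 rose, or 0 without any 1 of the SDD, RISDD or SDDIR libraries. Thy1, a surface marker of fibroblasts, averaged 828 in RISDD, 1840 in SDDIR, 6913 in SDD and 7704 in NIL. Of 4 epithelial markers, all 4 rose in RISDD against SDD, with a summed signal of 8467 to 12615 in RISDD, 2389 to 3719 in SDDIR, 15.8 to 25.1 in SDD and 55.3 to 107 in NIL. Of 7 tested neuron markers, 5 fell in RISDD against SDD and 1 rose, or 0 rose without SDD A, SDD C, RISDD B or RISDD C, and 3 rose in SDD against NIL, or 1 without SDD A. The summed signal of all 9 neuron markers was 1355 to 1579 in RISDD, 2137 to 3170 in SDDIR, 4621 to 6397 in SDD and 2126 to 3812 in NIL, with Chat, of cholinergic neurons, at 0 in all groups. Of 3 tested endothelial markers, 2 rose in RISDD against SDD, or 1 without any 1 RISDD library, and the summed signal of all 4 was 496 to 601 in RISDD, 160 to 168 in SDDIR, 76.7 to 103 in SDD and 48.8 to 82.5 in NIL. The part that these shifts of cell markers have in the values below was not tested. In sorted cells measured in bulk, fewer cells of a type and less RNA per cell cannot be told apart.

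The family made up much less of the RNA in the cells with HRAS(G12V). Its 10 genes together held 0.04693% to 0.05003% of the signal in RISDD, 0.0762% and 0.0897% in SDDIR, 0.191% to 0.256% in SDD and 0.275% to 0.311% in NIL. The 4 ranges did not overlap. Biglycan alone supplied 65.9% to 73.9% of the family's signal in RISDD, 64.2% to 69.9% in SDDIR, 50.3% to 67.2% in SDD and 67.8% to 81.8% in NIL. Decorin supplied 16.0% to 17.5% in RISDD, 15.9% to 20.9% in SDDIR, 17.4% to 30.3% in SDD and 10.1% to 17.6% in NIL. The plot of the summed signal shows that Bgn, Dcn and Lum held most of it in every group. In the HRAS(G12V) groups almost all that was left belonged to them.

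**Figure D1:**
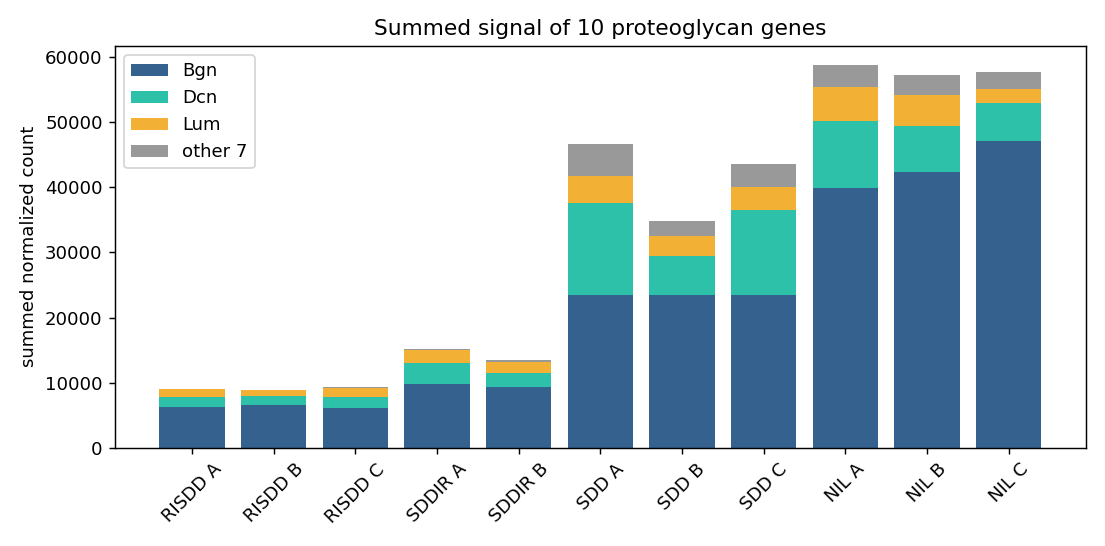
Summed signal (normalized counts, linear axis) of the 10 proteoglycan genes in each library, as stacked bars for Bgn, Dcn, Lum and the other 7 genes. The 3 RISDD bars lie between 8889 and 9246, the SDDIR bars at 13435 and 15222, the SDD bars between 34891 and 46703 and the NIL bars between 57325 and 58826.

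Class I of the family holds biglycan, decorin and asporin. Bgn encodes biglycan, a chondroitin or dermatan sulphate proteoglycan that binds collagen and is known in mice as a signal to Toll-like receptors. Its signal was 6264, 6570 and 6095 in RISDD, 9770 and 9387 in SDDIR, 23494, 23452 and 23510 in SDD, and 39884, 42385 and 47220 in NIL. Each group lay wholly apart from every other, with RISDD lowest and NIL highest, and the 3 SDD libraries differed by an SD of 30.0 around a mean of 23485. Dcn encodes decorin, which carries a single chondroitin or dermatan sulphate chain, binds fibrillar collagen and TGF-beta, and can bind the receptors EGFR and MET. Its signal was 1497, 1419 and 1616 in RISDD, 3176 and 2142 in SDDIR, 14154, 6063 and 13010 in SDD, and 10362, 7075 and 5846 in NIL. Every HRAS(G12V) library was below every SDD and NIL library, while SDD and NIL overlapped through SDD B. Aspn encodes asporin, which binds collagen and TGF-beta but, unlike the other members of its class, carries no glycosaminoglycan chain. Its signal was 12.4, 23.3 and 18.2 in RISDD, 36.4 and 37.9 in SDDIR, 364, 185 and 232 in SDD, and 875, 974 and 185 in NIL. RISDD, SDDIR and SDD did not overlap for Aspn, and NIL overlapped SDD through NIL C.

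Class II holds lumican, fibromodulin, keratocan, Prelp and osteomodulin, several of which carry keratan sulphate. Lum encodes lumican, which keeps collagen fibrils thin in the cornea, skin and tendon. Its signal was 1248, 818 and 1465 in RISDD, 2007 and 1695 in SDDIR, 4130, 2963 and 3520 in SDD, and 5213, 4761 and 2104 in NIL. The HRAS(G12V) groups lay below SDD and NIL here too, and again NIL C was the low library of its group. Fmod encodes fibromodulin, a regulator of fibril growth in tendon. Its signal was 6.18, 18.2 and 13.4 in RISDD, 28.8 and 27.3 in SDDIR, 688, 499.9 and 544 in SDD, and 764, 686 and 987 in NIL. Fmod therefore had its largest gap between SDDIR and SDD, where a mean of 28.0 ± 1.08 (SD, n = 2) in SDDIR stood against 577 ± 98.3 (SD, n = 3) in SDD. Prelp encodes a protein with a heparin-binding amino-terminal stretch that links basement membranes to connective tissue. Its signal was 3.71, 7.08 and 4.74 in RISDD, 14.4 and 4.74 in SDDIR, 251, 110.2 and 187 in SDD, and 115, 50.2 and 159 in NIL. The Prelp values of RISDD and SDDIR overlapped, and both groups rested on few reads, with 3, 7 and 6 reads in the RISDD libraries.

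Keratocan, encoded by Kera, is best known from the corneal stroma, where with lumican it sets the spacing of collagen fibrils, and it is also present in tendon. It was the member whose level differed most among the groups. Its signal was 1.24, 5.06 and 4.74 in RISDD, 136 and 77.1 in SDDIR, 3056, 1339 and 2266 in SDD, and 469.6, 353 and 109 in NIL. Every SDD library lay above all others and every RISDD library below all others. SDDIR and NIL overlapped through NIL C, with means of 107 ± 41.9 in SDDIR (SD, n = 2) and 311 ± 184 in NIL (SD, n = 3). The RISDD libraries held 1, 5 and 6 reads of Kera. Osteomodulin, encoded by Omd, is a keratan sulphate proteoglycan of bone and was close to the detection limit in every group. Its signal was 0, 5.06 and 4.74 in RISDD, 1.69 and 5.93 in SDDIR, 9.02, 8.70 and 7.37 in SDD, and 4.07, 32.3 and 12.6 in NIL. A count of 0 in RISDD A allows up to 3 reads, or a signal of 3.71, and Omd was too low in too many libraries to enter the test.

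The last 2 members belong to smaller classes. Ogn encodes osteoglycin, also called mimecan, a class III member found in bone, cornea and vessel walls. Its signal was 1.24, 7.08 and 3.16 in RISDD, 22.9 and 10.7 in SDDIR, 255, 168 and 142 in SDD, and 534, 611 and 130.1 in NIL. RISDD, SDDIR and SDD were separate, with RISDD lowest and SDD highest, while NIL A and NIL B lay above SDD and NIL C below it. Podn encodes podocan, a class V member that binds collagen and is known in mice to restrain smooth muscle cell growth. Its signal was 8.66, 16.2 and 21.3 in RISDD, 27.9 and 46.2 in SDDIR, 301, 102 and 152 in SDD, and 605, 397 and 963 in NIL. For Podn, as for Bgn, the 4 groups did not overlap, with RISDD lowest, then SDDIR, SDD and NIL.

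**Figure D2:**
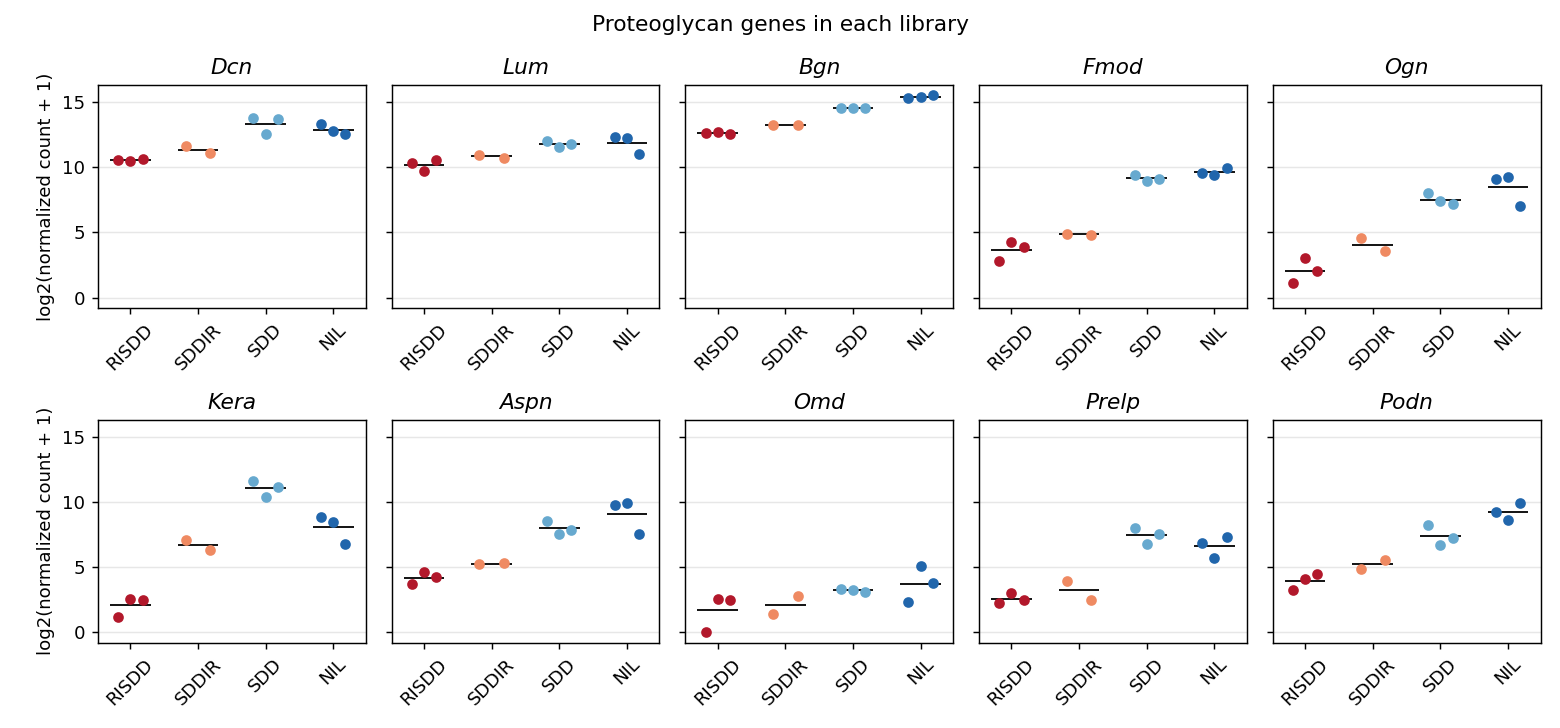
Signal of each of the 10 genes as log2(normalized count + 1), one panel a gene and one dot a library, with RISDD (n = 3), SDDIR (n = 2), SDD (n = 3) and NIL (n = 3) from left to right and a bar at the mean of each group. Kera is highest in SDD, at 1339 to 3056 normalized counts, and Bgn in NIL, at 39884 to 47220.

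Levels can be compared between genes only per length. Per kilobase of the longest annotated coding transcript, Bgn stood highest in every group, followed by Dcn and then Lum. Mean signal per kilobase for Bgn was 2608 in RISDD, 3960 in SDDIR, 9709 in SDD and 17843 in NIL. The place after Lum changed hands, since Kera held it in SDDIR and SDD but ranked 7th of 10 in RISDD and 8th of 10 in NIL. Mean signal per kilobase for Kera was 1.61 in RISDD, 46.8 in SDDIR, 974 in SDD and 136 in NIL, against 481 in RISDD, 756 in SDDIR, 1445 in SDD and 1645 in NIL for Lum.

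The strongest contrast was that of RISDD with SDD, whose cells share RepSox and the SNAP sort. RISDD adds HRAS(G12V) before the IRES and also places SNAP-p53DD after it, so the part of each cannot be told apart here. All 10 genes were lower in RISDD, with no overlap between the groups, as were 34.6% of the tested genes. A gene was called changed when its Benjamini-Hochberg adjusted p over all tested genes was under 0.05 in a limma fit of log2(signal + 1), and all log2 changes and folds below are on that scale. All 9 tested genes were called lower, where 22.6% of the 14207 tested genes were called lower and 20% higher. Their median log2 change was -3.77, against 0.02 over all tested genes. These counts, and those of the contrasts below, describe genes that were chosen with the differences between these groups known. The counts are no test of the family. Kera, Ogn and Prelp passed the filter on low values only through groups other than RISDD. A signal of 10 was reached by none of the RISDD libraries for Kera, Ogn, Prelp and Omd, and by 2 of 3 for Fmod and Podn. The log2 change of Kera was -8.94 ± 0.58 (SE), 492-fold lower in RISDD. Fmod differed by -5.51 ± 0.33, Ogn by -5.44 ± 0.63 and Prelp by -4.85 ± 0.52, or 45.5-fold, 43.5-fold and 28.9-fold lower in RISDD. Since RISDD was near 0 for these 4 genes, their folds depend on the value added before taking logs, and with 10 in place of 1 the log2 changes were -7.28 for Kera, -4.72 for Fmod, -3.82 for Ogn and -3.60 for Prelp. Those of Aspn and Podn, -3.77 ± 0.56 and -3.44 ± 0.47 as fitted, were then -3.24 and -2.84. The other 5 tested members differed less. Aspn was 13.6-fold, Podn 10.9-fold, Dcn 6.87-fold, Bgn 3.72-fold and Lum 3.06-fold lower in RISDD.

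With HRAS(G12V) after the IRES, the direction was the same and the size smaller. All 10 genes were lower in SDDIR than in SDD without overlap, and non-overlap in that direction was seen for 32.3% of tested genes. Of the 9 tested genes, 8 were called lower, where 13.9% of all tested genes were called lower, and their median log2 change was -2.72, against 0.01 over all tested genes. Kera was 20.3-fold lower (log2 change -4.34 ± 0.64, SE), Fmod 19.7-fold (-4.30 ± 0.36), Prelp 18.5-fold (-4.21 ± 0.59), and the log2 change of Ogn was -3.46 ± 0.71. Prelp moved to -3.50 without SDDIR B, to -4.92 without SDDIR A and to -3.28 with 10 added in place of 1. With 10 added, Kera was at -4.23, Fmod at -3.94 and Ogn at -2.89. Aspn was then at -2.46, against -2.72 as fitted, and Podn at -1.95, against -2.19. Aspn was 6.57-fold, Podn 4.55-fold, Dcn 3.98-fold and Bgn 2.45-fold lower in SDDIR. Lum was the exception, with a log2 change of -0.93 ± 0.37 that was not called. It was called without NIL C, with array weights, in a fit of these 2 groups alone and by DESeq2. With only 2 SDDIR libraries, 3 of the calls hung on single libraries: Aspn was not called without SDDIR A or SDDIR B, Podn without SDDIR A and Ogn without SDDIR B.

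**Figure D3:**
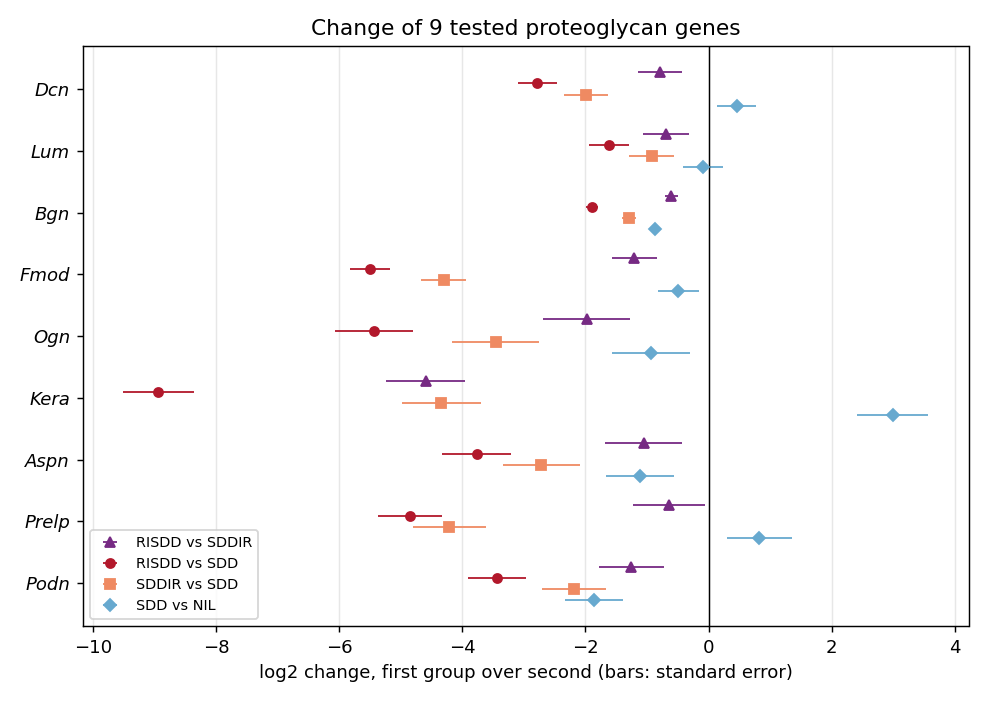
Log2 change of the 9 tested genes on the log2(normalized count + 1) scale in RISDD against SDDIR, RISDD against SDD, SDDIR against SDD and SDD against NIL, with bars for the standard error from the limma fit. All points of the first 3 comparisons lie left of 0, and Kera is at -8.94 in RISDD against SDD and at 3.00 in SDD against NIL.

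The comparison of RISDD with SDDIR sets the same coding sequences in both orders against each other. Of the 10 genes, 8 were lower in RISDD without overlap, where 29% of tested genes were, and Prelp and Omd overlapped. Only Kera and Bgn were called, both lower in RISDD, where 5.05% of all tested genes were called lower. The median log2 change of the 9 tested genes was -1.05, against 0.01 over all tested genes. Kera averaged 3.68 ± 2.12 in RISDD (SD, n = 3) and 107 ± 41.9 in SDDIR (SD, n = 2), 24.3-fold lower in RISDD with a log2 change of -4.60 ± 0.64 (SE), and -3.06 with 10 added in place of 1. Bgn was 1.52-fold lower (-0.60 ± 0.11), a call that was lost without SDDIR A or SDDIR B. The other 7 were not called. Their log2 changes ran from -0.64 ± 0.59 for Prelp, which was at 0.07 without SDDIR A, to -1.98 ± 0.71 for Ogn, which was at -0.94 with 10 added in place of 1. Without NIL C, whose spread enters the shared fit, Lum, Fmod, Ogn and Aspn were called lower as well. Fmod was also called without RISDD B. RISDD and SDDIR are compared with the same SDD libraries above, so those changes are not independent of each other.

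SDD against NIL differed from the HRAS(G12V) contrasts in that the family moved in no common direction. Of the 9 tested genes, Bgn and Podn were called lower in SDD, where 8.26% of all tested genes were, and Kera was called higher, where 9.32% were. The same 3 genes were the only ones of the 10 without overlap between the groups, where 17.3% of tested genes were lower and 19% higher without overlap. Kera averaged 2220 ± 859 in SDD and 311 ± 184 in NIL (n = 3 each, SD), 7.98-fold higher in SDD, with a log2 change of 3.00 ± 0.58 (SE) that was 2.36 without NIL C. Podn averaged 185 ± 103 in SDD and 655 ± 286 in NIL (n = 3 each, SD), 3.65-fold lower in SDD, and was not called without SDD B, without SDD C, with array weights or in a fit of these 2 groups alone. Bgn averaged 23485 ± 30.0 in SDD and 43163 ± 3729 in NIL (n = 3 each, SD), 1.83-fold lower in SDD. The remaining 6 log2 changes ran from -1.11 ± 0.56 for Aspn to 0.83 ± 0.52 for Prelp. Without NIL C, Ogn at -1.64 and Aspn at -1.88 were called lower in SDD, against -0.93 and -1.11 with all libraries. Leukocyte markers moved in this comparison too, with 3 of 6 lower in SDD, or 1 if SDD A, SDD C or NIL B is left out, and a summed signal of 507 to 1347 in SDD and 3293 to 12735 in NIL, and their part in these values was not tested.

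Kera was thus high in SDD and near 0 in RISDD, and some markers of tendon had the same order of group means. Tnmd, which encodes the tendon protein tenomodulin, averaged 1.13 in RISDD, 9.91 in SDDIR, 439 in SDD and 183 in NIL. It fell in RISDD against SDD, with a log2 change of -7.82 (adjusted p = 1.01e-06), and in SDDIR against SDD, with one of -5.36 (adjusted p = 1.14e-04). With 10 added in place of 1 these were -5.30 and -4.47, since RISDD and SDDIR were near 0. The log2 change of 1.29 in SDD against NIL did not pass (adjusted p = 0.0929). Mkx, a tendon transcription factor, averaged 6.79 in RISDD, 12.8 in SDDIR, 93.6 in SDD and 78.3 in NIL. It fell in RISDD against SDD, with a log2 change of -3.74, or -2.64 with 10 added (adjusted p = 6.77e-05), and in SDDIR against SDD, with one of -2.79, or -2.17 with 10 added (adjusted p = 0.00253), and did not pass in SDD against NIL (adjusted p = 0.708). Scx, another, had a different order, with 36.5 in RISDD, 95.3 in SDDIR, 29.0 in SDD and 102 in NIL. It rose in SDDIR against SDD (adjusted p = 0.0129), a call lost without SDDIR B, and fell in SDD against NIL (adjusted p = 0.00853), a call lost with array weights. Over the whole list of 12 cartilage, bone and tendon markers the summed signal was 1762 to 2406 in RISDD, 1717 to 1923 in SDDIR, 1355 to 1783 in SDD and 1418 to 1621 in NIL, with the bone marker Ibsp at 0 in all groups. Of the 8 tested, 2 fell and 1 rose in RISDD against SDD, where 22.6% of all tested genes fell and 20% rose. Leaving out single libraries gave up to 3 and 2. In SDDIR against SDD 2 fell, where 13.9% of all did, and 2 rose, or 1 without SDDIR B. Runx2 rose in both, at 1291 in RISDD and 1235 in SDDIR against 541 in SDD (adjusted p = 9.20e-05 and 8.61e-04). The part of such cells in the Kera values was not tested.

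The members varied together across the 11 libraries. Pearson's r of log2(signal + 1) was between 0.716 and 0.985 for the 36 pairs that leave out Omd, and between 0.517 and 0.713 for pairs with Omd, whose reads were few. These libraries share their groups and the scaling of each library, so r describes mainly how alike the group levels are. Aspn and Ogn were the closest pair at 0.985. Among 10658 genes with a mean signal of at least 100, the gene nearest to Bgn was Fbln2 (r = 0.995), which encodes the matrix protein fibulin 2, followed by Col5a1 and Cercam (0.994 each). Nearest to Ogn was Postn (0.986), which encodes periostin, a matrix protein of bone and tendon, ahead of Aspn. Podn was nearest to Mmp11 (0.988), Fmod to Glg1 (0.992), Dcn to Npas3 (0.985) and Lum to Tctn3 (0.991). Kera was nearest to Aldh1l2 (0.993), Prelp to Jam3 (0.986) and Aspn to Ogn (0.985).

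Most of the family lies in gene clusters. In the RefSeq order of mouse genes, Optc, Prelp and Fmod are neighbours on chromosome 1, Dcn, Lum, Kera and Epyc on chromosome 10, and Ecm2, Aspn, Omd and Ogn on chromosome 13, while Podn on chromosome 4 and Bgn on chromosome X stand alone. Optc, Epyc and Ecm2 encode further members of the superfamily: opticin, epiphycan and an extracellular matrix protein with leucine-rich repeats. Optc averaged 2.17 in RISDD and 22.4 in SDD and fell with a log2 change of -2.93, or -1.39 with 10 added in place of 1 (adjusted p = 0.00107), Ecm2 averaged 12.3 in RISDD and 16.9 in SDD and did not pass (adjusted p = 0.688), and Epyc was too low to test. Of the 15 tested genes of other families that flank these loci, 1 fell and 5 rose in RISDD against SDD, where 22.6% of all tested genes fell and 20% rose. Btg2, beside Fmod and an antiproliferative gene that p53 is known to induce, averaged 2041 in RISDD and 9246 in SDD (log2 change -2.16, adjusted p = 2.08e-05). Dusp9, close to Bgn and a phosphatase of MAP kinases, rose by a log2 change of 3.67 (adjusted p = 2.94e-06), and Ippk, close to Ecm2 and an inositol phosphate kinase, by 1.95 (adjusted p = 9.23e-06). Without NIL C, 2 flanking genes fell and 8 rose, and without SDD B, RISDD A or RISDD B, 3 rose. Cenpp, a centromere gene, spans Ecm2 to Ogn on the opposite strand. The library kit keeps strand, but whether the counting used strand is not stated, so reads of Cenpp and of these genes may be mixed. Whether exons of Cenpp and of these genes overlap was not checked. Cenpp averaged 71.9 in RISDD and 103 in SDD, a log2 change of -0.50 (adjusted p = 0.166).

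**Figure D4:**
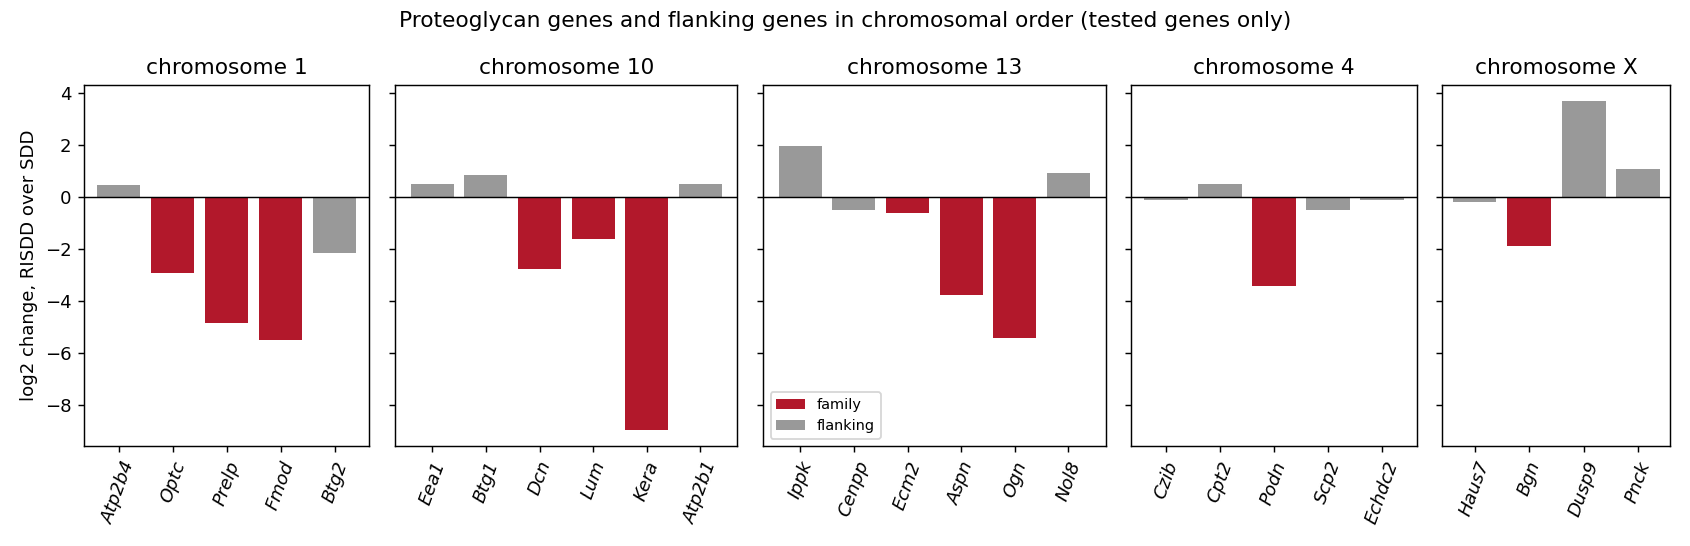
Log2 change in RISDD against SDD of the tested family genes (red) and of flanking genes of other families (grey), in the order in which they lie on each chromosome and with no scale of distance. Bars start at 0. Family genes reach -8.94 for Kera, while their grey neighbours lie between -2.16 for Btg2 and 3.67 for Dusp9.

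The promoters of Aspn and Ogn are shown because these were the members with the highest r across libraries and lie in one cluster, with Omd between them. Each is the 250 bases before the gene's start, on the plus strand, from RefSeq's GRCm38.p6 annotation, which is an older build than the GRCm39 that the authors used. Capitals mark TATAAA on either strand. The windows lie at chr13:49544193-49544442 for Aspn and at chr13:49607765-49608014 for Ogn.
Aspn: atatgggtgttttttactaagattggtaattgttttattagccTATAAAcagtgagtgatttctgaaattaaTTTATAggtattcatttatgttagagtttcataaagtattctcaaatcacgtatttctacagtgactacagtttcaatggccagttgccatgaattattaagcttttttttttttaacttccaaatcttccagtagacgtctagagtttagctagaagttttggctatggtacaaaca
Ogn: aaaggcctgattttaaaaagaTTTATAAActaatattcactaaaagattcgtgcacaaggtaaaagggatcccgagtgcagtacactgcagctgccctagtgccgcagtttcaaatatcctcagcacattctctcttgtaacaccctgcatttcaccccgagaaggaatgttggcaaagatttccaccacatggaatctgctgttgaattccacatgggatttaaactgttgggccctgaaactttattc

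Aspn and Ogn were the only members with a TATAAA match among the 9 windows of 8 members, and 12.4% of all 32851 windows of that length hold one. In Aspn the matches start 207 and 178 bases before the gene's start, and in Ogn 2 overlapping matches on opposite strands start at 229 and 227. The AP-1 motif TGANTCA, which FOS and JUN proteins bind, was in none of the 9 windows and in 6.75% of all windows. The E-box CANNTG, bound by Ngn2 among many factors, was in 6 of the 9 windows and in 66.2% of all, and the homeodomain motif TAATTA in none of the 9 and in 4.84% of all. All motifs were read on both strands.

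The related matrix genes were read in RISDD against SDD, where 22.6% of all tested genes fell, 20% rose and the median log2 change was 0.02. Of 8 other leucine-rich relatives, 4 could be tested and 3 fell, with a median log2 change of -1.29. Tsku, encoding tsukushi, averaged 256 ± 3.30 in RISDD and 636 ± 34.1 in SDD (SD, n = 3 each), 2.48-fold lower (adjusted p = 1.57e-04). Optc fell as given above, and Chadl, encoding a chondroadherin-like protein, fell 2.42-fold (adjusted p = 0.0163) but not without SDD C, RISDD A or RISDD C. Chad, encoding chondroadherin of cartilage, was at 0 in all libraries.

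Collagens, to which the family binds, were lower as well. Of 14 genes for fibril-forming, fibril-associated and type VI collagens, 12 fell and none rose in RISDD against SDD, with a median log2 change of -2.33. Col14a1, which encodes a fibril-associated collagen, averaged 24.1 ± 3.78 in RISDD and 3245 ± 462 in SDD (SD, n = 3 each), 129-fold lower (log2 change -7.02, or -6.57 with 10 added in place of 1, adjusted p = 1.91e-08). Col12a1, encoding another, averaged 457 ± 85.3 in RISDD and 21185 ± 5234 in SDD, 45.8-fold lower (adjusted p = 6.86e-08), and Col1a1, for the main chain of type I collagen, 5821 ± 314 in RISDD and 139540 ± 18365 in SDD, 23.8-fold lower (adjusted p = 5.29e-07). Col2a1 and Col11a2, collagen genes of cartilage, did not pass, at 11.2 and 26.7 in RISDD against 6.63 and 39.1 in SDD. In SDDIR against SDD, where 13.9% of all tested genes fell, 12 of the 14 did, Col14a1 by 88.2-fold (log2 change -6.46, or -6.14 with 10 added, adjusted p = 5.34e-07). In SDD against NIL, where 8.26% fell, 2 of the 14 did, or 4 without NIL A, and 0 rose, or 2 without NIL C and 1 without either SDDIR library. Among those that fell was Col5a1 at 26892 ± 2170 in SDD and 65526 ± 22245 in NIL (n = 3 each, SD), 2.36-fold lower (adjusted p = 0.00250).

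The enzymes that build the chains were divided. Of 23 genes of chondroitin and dermatan sulphate synthesis, 13 fell and 3 rose in RISDD against SDD, with a median log2 change of -0.78. Chst15, a chondroitin sulphotransferase, averaged 126 ± 4.92 in RISDD and 1541 ± 231 in SDD (SD, n = 3 each), 12.1-fold lower (adjusted p = 1.37e-07), and Chst3, another, fell 7.20-fold (adjusted p = 5.46e-05). Dsel, which encodes an epimerase-like protein of dermatan sulphate synthesis, averaged 320 ± 28.3 in RISDD and 2302 ± 718 in SDD, 6.97-fold lower (adjusted p = 3.18e-04). Of 5 tested genes of keratan sulphate synthesis, none passed in the limma fit, 1 had an unadjusted p under 0.05, and none passed in edgeR or in DESeq2, while 2 fell without NIL C. Their median log2 change was -0.17. The large proteoglycans fell in part. Of 5 tested genes for large proteoglycans and their link proteins, Hspg2 and Vcan fell. The proteoglycan gene Acan and the link protein genes Hapln1 and Hapln4 did not pass. The median log2 change of the 5 was -0.29. Hspg2, encoding perlecan of basement membranes, averaged 4827 ± 319 in RISDD and 34322 ± 220 in SDD (SD, n = 3 each), 7.12-fold lower (adjusted p = 1.80e-05), and Vcan, encoding versican, fell 3.40-fold (adjusted p = 5.16e-04).

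Proteases that cut the family or its collagens, listed together with the enhancer Pcolce, moved in both directions. Of the 11 tested genes of this list, Pcolce among them, 8 fell and 2 rose in RISDD against SDD, and 1 rose without SDD A or without RISDD B. Their median log2 change was -1.38. Adamts5, an aggrecan-cleaving protease, averaged 12.7 in RISDD and 268 in SDD, 18.1-fold lower (log2 change -4.18, or -3.50 with 10 added in place of 1, adjusted p = 6.31e-06), and Pcolce, which enhances procollagen processing, 1069 ± 70.5 in RISDD and 9700 ± 1110 in SDD (SD, n = 3 each), 9.04-fold lower (adjusted p = 1.12e-06). Mmp3, encoding stromelysin 1, rose to 9304 ± 1552 in RISDD, against 1214 ± 514 in SDD (SD, n = 3 each), 8.04-fold higher (adjusted p = 7.05e-04).

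Among receptors that members are known to bind, 4 of 12 fell and 2 rose in RISDD against SDD, where 22.6% and 20% of all tested genes did, with a median log2 change of -0.64. Tlr2, a receptor for biglycan, averaged 19.1 in RISDD and 190 in SDD, 8.62-fold lower (log2 change -3.11, or -2.65 with 10 added in place of 1, adjusted p = 8.69e-04). Lrp1, an endocytic receptor for decorin, averaged 6303 ± 442 in RISDD and 22008 ± 2800 in SDD (SD, n = 3 each), 3.48-fold lower (adjusted p = 1.03e-04). Itga2, a collagen receptor subunit that binds decorin, averaged 450 ± 49.7 in RISDD and 72.2 ± 46.0 in SDD, 7.67-fold higher (log2 change 2.94, or 2.17 without SDD A, adjusted p = 0.00205). Egfr, another receptor for decorin, was among those that fell. It averaged 2048 ± 206 in RISDD and 4161 ± 641 in SDD (SD, n = 3 each), 2.02-fold lower (adjusted p = 3.40e-04). In NIL it averaged 2107 ± 313 (SD, n = 3), and so Egfr rose 1.97-fold in SDD against NIL (adjusted p = 0.00255).

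Of 7 growth factors that the family is known to bind, 4 fell and 1 rose in RISDD against SDD, or 2 rose without NIL A or without NIL C. Their median log2 change was -2.19. Bmp4, a bone morphogenetic protein, averaged 21.1 ± 7.15 in RISDD and 1424 ± 320 in SDD (SD, n = 3 each), 65.5-fold lower (log2 change -6.03, or -5.53 with 10 added in place of 1, adjusted p = 1.67e-07). Ccn4, whose protein binds decorin and biglycan, averaged 221 ± 35.1 in RISDD and 3668 ± 368 in SDD, 16.6-fold lower (adjusted p = 8.70e-08), and Ccn2, encoding connective tissue growth factor, fell 12.6-fold (adjusted p = 2.65e-06). The gene that rose was Tgfb1, whose mean signal was 2786 in RISDD and 722 in SDD, a log2 change of 1.99 (adjusted p = 1.64e-04). In SDDIR, at a mean of 1410, Tgfb1 was above SDD as well (log2 change 1.01, adjusted p = 0.0339). Leaving out single libraries gave 0 to 2 risen genes of this list in SDDIR against SDD. Tgfb1 fell in SDD against NIL, with 722 ± 218 in SDD and 1937 ± 645 in NIL (n = 3 each, SD), 2.67-fold lower (adjusted p = 0.00609, and 0.0511 in a fit of these 2 groups alone).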

How the data were processed

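The submitters' processing notes name Trim Galore 0.6.10, Salmon 1.10.3 and the build GRCm39. The deposited values are signal, meaning gene counts that the authors had divided by 1 constant per library. The sources used here do not name the scaling tool. Every value was a whole multiple of its library's step (tolerance 0.001), which gave back the reads. The SDDIR B heading was on 2 columns that did not differ in any of the 23077 rows and were used as 1 library, leaving 1 further SDDIR sample not analysed here. The table does not settle if that library is replicate B or C.

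The 14207 genes that reached a signal of 10 in 3 or more libraries were fitted as log2(signal + 1) in 1 model of all 11 libraries (R 4.3.3, limma 3.58.1), with trend and robust moderation and Benjamini-Hochberg adjustment. The script was tested on simulated data. The members and lists were chosen with earlier results of these data known. From each related list up to 3 genes are named, taken in order of absolute log2 change from those that passed and averaged 100 or more in a compared group. The tendon markers, Thy1, Vim, Col1a2, Optc, Chadl, Ecm2, Chad, Col2a1, Col11a2, Acan, Hapln1, Hapln4, the flanking genes and the pair of promoters were named after their values were seen. So were Tgfb1 in the HRAS(G12V) contrasts and Egfr in RISDD against SDD. Alternatives were other scalings, pseudocounts, filters, moderation and weights, a replicate block, fits of the 2 groups compared, edgeR 4.0.16 and DESeq2 1.42.0 on the recovered reads, and leaving out each library.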

Additional observations from a re-analysis of the deposited data

How the results depend on the processing

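Of 825 log2 changes of members under the alternatives, 810 moved by less than the spread between replicates and 15 by more. Some of the alternatives could not move a log2 change, which is a difference of group means. They were the fits without the filter, with other moderation or of the 2 groups compared, and those without a library of another group. The 810 are therefore no measure of how robust the changes are. No called change took the other sign, and 4 changes that were not called did. These were Lum in SDD against NIL, at -0.09 with all libraries and at 0.15 without NIL A, 0.08 without NIL B and 0.03 without SDD B, and Prelp in RISDD against SDDIR, at -0.64 with all libraries and 0.07 without SDDIR A. Among the 9 tested members, leaving out each library in turn gave 9 calls each time in RISDD against SDD, 6 to 9 in SDDIR against SDD, 2 to 5 in SDD against NIL and 1 to 6 in RISDD against SDDIR. The 6 calls of RISDD against SDDIR came without NIL C and the 1 call without SDDIR A or SDDIR B, against 2 with all libraries. Array weights gave 7 calls there and DESeq2 on the recovered reads 4. The labels do not say what a replicate letter shares. Same-letter deviations correlated at 0.000225 to 0.271, over 0.1 in 9 of 15 pairs, and different-letter ones at -0.198 to 0.137. Since not every pair was over 0.1, the letters were not taken as pairing the libraries. As a hint from the data and not the design, each RISDD, SDD and NIL library correlated best with its own letter in both other groups (18 of 18 matches). With a replicate block the members called were 9 in RISDD against SDD, 8 in SDDIR against SDD, 3 in SDD against NIL and 2 in RISDD against SDDIR, the same counts as without it, and all genes called were 6301 with and 6046 without it, 3359 and 3199, 2777 and 2498, and 1440 and 1377 in the same order. Over all genes, leaving out NIL C raised the calls most, to 8972 against 6046 in RISDD against SDD, 6336 against 3199 in SDDIR against SDD, 4114 against 2498 in SDD against NIL and 4186 against 1377 in RISDD against SDDIR; the cause was not tested. DESeq2 called 6670, 4006, 3641 and 2258 genes in the same order. Quantile scaling changed the split in SDDIR against SDD to 1718 higher and 1790 lower, against 1230 higher and 1969 lower. With the filter on low values left out, Omd had log2 changes of -1.52 in RISDD against SDD, -1.11 in SDDIR against SDD, -0.50 in SDD against NIL and -0.40 in RISDD against SDDIR, on 0 to 29 reads a library. Few reads limit the values of Kera, Ogn, Prelp and Omd in RISDD, intervals for which would cover counting error only, and 2 libraries limit every value of SDDIR.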
